A study of Mus musculus with 6 samples.

Results

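Microglia are the resident macrophages of the brain, and the 9 genes described here, Cx3cr1, P2ry12, Tmem119, Csf1r, Aif1, C1qa, C1qb, C1qc and Trem2, are widely used to recognise these cells in brain RNA. The genes were chosen by name as 9 of the 25239 genes counted. No rule on measured values was used, but earlier results of these data were known when they were chosen. RNA was sequenced from the whole hippocampus of 3 WT (Ube3am+/p+) mice and 3 Ube3am-/p+ mice, with 1 library per mouse. The mice were C57BL/6 males aged 6 to 8 weeks, and no treatment was named for either genotype. Ube3am-/p+ mice carry a defective copy of Ube3a from the mother and an intact copy from the father, and they serve as a model of Angelman syndrome. In most neurons the paternal copy is silent, whereas other cells, microglia included, read both copies. The study asked which hippocampal transcripts differ when the maternal copy is lost, and the values below give the microglial share of that comparison.

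Microglia enter the brain early in development and renew themselves there. Their survival depends on signals through the receptor encoded by Csf1r, whose ligands Csf1 and Il34 are made by other brain cells. Their processes survey the tissue and follow extracellular nucleotides through P2ry12 and the neuronal chemokine Cx3cl1 through Cx3cr1. C1q, the starting component of the classical complement cascade, is assembled from the chains encoded by C1qa, C1qb and C1qc and is made in brain mainly by microglia. It tags material for removal, synapses included. Hippocampal RNA is read here in bulk, so fewer microglia and less RNA of a gene per microglial cell cannot be told apart in any value below.

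The promoters of the C1q chains and of P2ry12 are shown because the C1q chains are neighbours in the genome while P2ry12 lies elsewhere, had the lowest adjusted p of the 9 genes, and differed between the genotypes in the opposite direction to the means of the C1q chains. In GENCODE M21 on GRCm38 (mm10), C1qb (ENSMUSG00000036905.8) spans bases 136880129 to 136886187 of chromosome 4, C1qc (ENSMUSG00000036896.5) 136889804 to 136893065 and C1qa (ENSMUSG00000036887.5) 136895917 to 136898803, all on the minus strand and each with 3 exon blocks. P2ry12 (ENSMUSG00000036353.13) lies on the minus strand of chromosome 3, from 59216272 to 59262871, with 5 exon blocks. RefSeq promoters on GRCm38.p6, each 250 bases before to 50 bases after the start, were at hand for 6 of the 9 genes, Cx3cr1, P2ry12, Aif1, C1qb, C1qc and Trem2, and not for Tmem119, Csf1r and C1qa. Each line below runs 5′ to 3′ along the transcribed strand, and capitals mark GAGGAA or its reverse complement TTCCTC. These are letters that the myeloid transcription factor PU.1 (Spi1) is known to prefer, and other or shorter forms of its site were not searched. The windows are chr4:136886151-136886450 for C1qb, chr4:136892865-136893164 for C1qc and chr3:59262936-59263235 for P2ry12, all on the minus strand.
C1qb: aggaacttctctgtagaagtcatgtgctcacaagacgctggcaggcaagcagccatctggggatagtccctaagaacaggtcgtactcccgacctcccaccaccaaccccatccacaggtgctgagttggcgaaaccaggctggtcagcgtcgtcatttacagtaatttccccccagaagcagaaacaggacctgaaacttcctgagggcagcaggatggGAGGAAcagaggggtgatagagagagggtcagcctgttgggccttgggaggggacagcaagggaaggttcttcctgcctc
C1qc: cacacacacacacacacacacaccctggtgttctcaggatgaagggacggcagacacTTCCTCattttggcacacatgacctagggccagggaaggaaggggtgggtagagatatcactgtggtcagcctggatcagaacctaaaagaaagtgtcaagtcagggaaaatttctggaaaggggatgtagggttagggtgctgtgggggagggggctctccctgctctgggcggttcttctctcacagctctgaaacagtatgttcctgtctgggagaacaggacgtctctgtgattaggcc
P2ry12: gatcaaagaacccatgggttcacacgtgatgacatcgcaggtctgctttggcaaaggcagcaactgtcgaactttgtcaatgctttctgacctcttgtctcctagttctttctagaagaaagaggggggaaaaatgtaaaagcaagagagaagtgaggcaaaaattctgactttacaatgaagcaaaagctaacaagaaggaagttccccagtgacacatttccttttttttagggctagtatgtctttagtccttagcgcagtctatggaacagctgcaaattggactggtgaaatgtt

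GAGGAA was found on either strand once in 4 of the 6 windows. Counted in bases from the start, it began at -30 in C1qb, and its reverse complement began at -193 in C1qc, -40 in Trem2 and -7 in Aif1. The windows of P2ry12 and Cx3cr1 held no match, and 28.3% of the 32851 promoters of the same length did. TATAAA, the TATA box letters, was in none of the 6 windows and in 13.6% of all promoters. TGANTCA, the AP-1 letters, was in the Trem2 window alone, beginning at -9, and in 7.81% of all promoters. No match overlapped another, and a match is a description of letters.

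Depth was 7293272 to 8675252 counts on genes per library in WT mice and 8871052 to 11314409 in Ube3am-/p+ mice, and levels are given as CPM, counts scaled to the same gene total in every library. The targeted gene, Ube3a, stood at 103.5, 140.7 and 151.0 CPM in WT mice and at 96.8, 82.9 and 80.6 CPM in Ube3am-/p+ mice, lower in every mutant with a log2 fold change of -0.58 (SE 0.12, edgeR adjusted p = 0.0363, and -0.20 and 0.240 after the GC correction described below). Which part of the gene the maternal copy lacks is not given in the sources used here, and the count covers the whole gene. GC content separated the libraries. Each gene's log2 CPM in a library was set against its mean over all 6, and Spearman's rho of that deviation with GC content, across 14201 genes, was 0.0455 in WT mouse 1 and 0.0588 in Ube3am-/p+ mouse 1, while it was -0.506 and -0.571 for mice 2 and 3 of the WT and 0.526 and 0.528 for mice 2 and 3 of the Ube3am-/p+ genotype. The mice numbered 1 thus stood apart from the others of their genotype, and the counts of calls in each list are also given without them.

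All 9 microglia genes were detected in every mouse and passed the filter on low counts. None of the 9 was differentially expressed between Ube3am-/p+ and WT mice by edgeR's quasi-likelihood test, with a call at a Benjamini-Hochberg adjusted p below 0.05 over 14445 genes and a fold change above 1.2. Over all genes tested, 2.01% were called. At an unadjusted p below 0.05 stood 2 of the 9 (22.2%), P2ry12 with the lower mean in Ube3am-/p+ mice and C1qa with the higher, against 24.6% of all genes. The genotypes did not overlap for 1 of the 9, Csf1r, against 25.0% of all genes. DESeq2 called 1 of the 9, P2ry12, and gave no adjusted p for Aif1 and Trem2, with 6.69% of all genes called. A gene without an adjusted p cannot be called, and how many such genes DESeq2 left in the lists below is not given here. The median log2 fold change was 0.04 over the 9 genes and 0.00 over all genes tested.

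**Figure D1:**
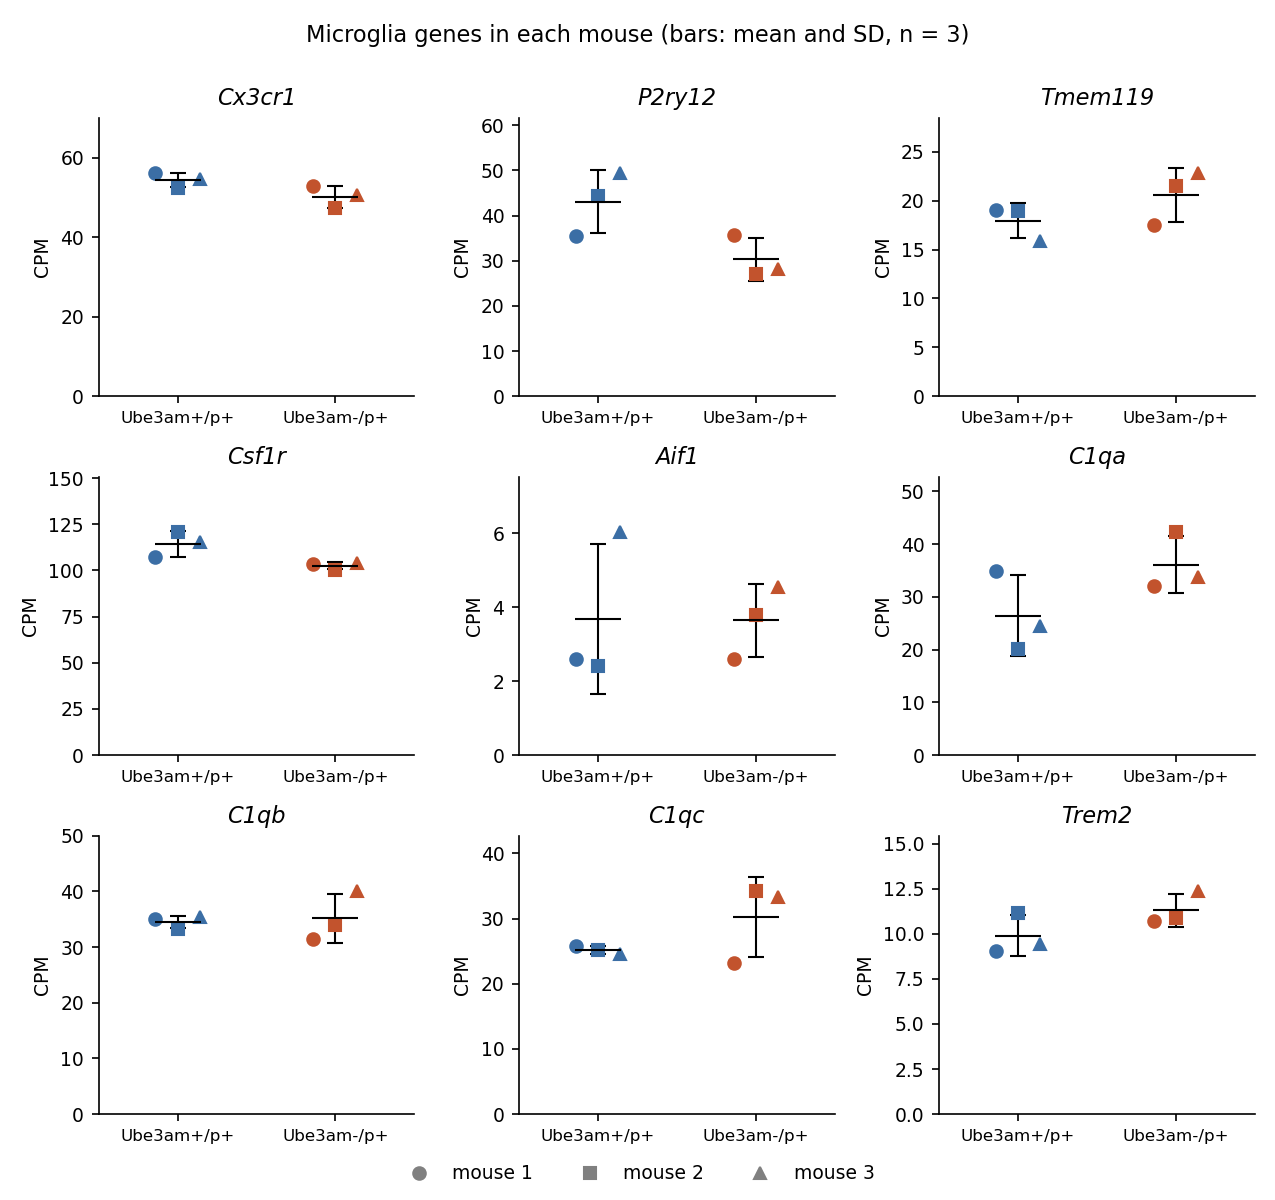
CPM (vertical axes, from 0, scaled per gene) of the 9 microglia genes in each WT (Ube3am+/p+) and Ube3am-/p+ mouse, with marker shapes for the mouse number and bars for the mean and SD of 3 mice. Csf1r is the gene whose Ube3am-/p+ mice all lie below the WT mice, and P2ry12 of the mice numbered 1 is nearly level, at 35.6 and 35.7 CPM.

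Of the surface receptors, P2ry12 showed the widest gap in means. P2ry12 encodes the Gi-coupled ADP receptor by which resting microglia send processes to injured cells. It stood at 35.6, 44.4 and 49.4 CPM in WT mice (43.1 ± 6.98, SD, n = 3) and at 35.7, 27.0 and 28.1 CPM in Ube3am-/p+ mice (30.3 ± 4.76, n = 3). Mice 2 and 3 of the mutants were the lowest and mice 2 and 3 of the WT the highest, and the groups overlapped because the mice numbered 1 were alike. Its log2 fold change was -0.49 (SE 0.14, 95% interval -0.78 to -0.21), a level 0.710 times that of WT, with an unadjusted p of 0.00214 and an adjusted p of 0.0590 by edgeR. An exact permutation of the mice gave p = 0.2, two-sided, where 3 against 3 cannot go below 0.1. P2ry12 was called without a filter on low counts (adjusted p = 0.0126 by edgeR, 6.10% of genes called) and by DESeq2 (adjusted p = 0.0275). It was also called by edgeR without WT mouse 1, at a log2 fold change of -0.61 (17.6% of genes called), and without Ube3am-/p+ mouse 1, likewise at -0.61 (12.5% of genes called). P2ry12 shares 9 exon bases with Med12l on the opposite strand.

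Csf1r, the receptor tyrosine kinase for Csf1 and Il34, was the most counted of the 9 genes, with 5942 counts in all. It lies on the plus strand of chromosome 18, from 61100598 to 61132149, with 24 exon blocks (ENSMUSG00000024621.16). It stood at 107.1, 120.7 and 115.2 CPM in WT mice (114.3 ± 6.85, n = 3) and at 103.6, 100.2 and 103.9 CPM in Ube3am-/p+ mice (102.6 ± 2.04, n = 3). Every Ube3am-/p+ mouse was below every WT mouse, with WT mouse 1 and Ube3am-/p+ mouse 3 the nearest. Its log2 fold change was -0.14 (SE 0.086, 95% interval -0.32 to 0.04, edgeR adjusted p = 0.327), and the exact permutation p was 0.1, the lowest possible. Exons of Hmgxb3 on the opposite strand overlap those of Csf1r over 873 bases, and the strand setting of the counting is not given in the sources used here, so reads there cannot be assigned with certainty.

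Cx3cr1, the receptor for the neuronal chemokine fractalkine, was the steadiest of the receptors among WT mice. It spans bases 119901616 to 120069879 of chromosome 9 on the minus strand (ENSMUSG00000052336.7). Its levels were 56.1, 52.5 and 54.7 CPM in WT mice (54.4 ± 1.83, n = 3) and 52.8, 47.3 and 50.5 CPM in Ube3am-/p+ mice (50.2 ± 2.75, n = 3). The groups overlapped narrowly, with WT mouse 2 under Ube3am-/p+ mouse 1. The log2 fold change of -0.10 (SE 0.094, 95% interval -0.30 to 0.10) had an adjusted p of 0.541 by edgeR.

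Trem2 encodes a lipid-sensing receptor that signals through the adaptor Tyrobp and is best known as a risk gene of Alzheimer's disease. It lies on the plus strand of chromosome 17, from 48346401 to 48354147 (ENSMUSG00000023992.14). Trem2 stood at 9.07, 11.2 and 9.46 CPM in WT mice (9.90 ± 1.12, n = 3) and at 10.7, 10.9 and 12.4 CPM in Ube3am-/p+ mice (11.3 ± 0.908, n = 3). WT mouse 2 lay inside the mutant range. Its log2 fold change was 0.21 (SE 0.17, 95% interval -0.14 to 0.56, edgeR adjusted p = 0.457).

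Tmem119, a membrane protein used to tell microglia from incoming macrophages, lies on the minus strand of chromosome 5, from 113793729 to 113800516 (ENSMUSG00000054675.5). It stood at 19.1, 18.9 and 15.9 CPM in WT mice (18.0 ± 1.79, n = 3) and at 17.5, 21.5 and 22.8 CPM in Ube3am-/p+ mice (20.6 ± 2.78, n = 3). Ube3am-/p+ mouse 1 fell within the WT range, and the other mutants were above it. The log2 fold change was 0.22 (SE 0.14, 95% interval -0.09 to 0.52, edgeR adjusted p = 0.358).

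Aif1, the gene of the cytoskeletal protein IBA1 that microglia are stained for, was the least counted of the 9, with 201 counts in all 6 libraries. It lies on the minus strand of chromosome 17, from 35170991 to 35176068 (ENSMUSG00000024397.14). Its levels were 2.59, 2.42 and 6.03 CPM in WT mice (3.68 ± 2.04, n = 3) and 2.59, 3.80 and 4.56 CPM in Ube3am-/p+ mice (3.65 ± 0.993, n = 3). WT mouse 3 alone was far above the other WT mice, and the spread of 55.4% of the mean among WT mice exceeded the 18.1% that counting gives. The log2 fold change of 0.04 had a wide 95% interval, -0.69 to 0.78 (SE 0.35, edgeR adjusted p = 0.951). Differences of either sign inside that interval are compatible with the values of these mice.

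Among the C1q chains the mean of C1qa differed most between the genotypes. C1qa stood at 34.9, 20.1 and 24.4 CPM in WT mice (26.4 ± 7.61, n = 3) and at 32.1, 42.3 and 33.8 CPM in Ube3am-/p+ mice (36.1 ± 5.42, n = 3). The mice numbered 1 were again close to each other, with WT mouse 1 above Ube3am-/p+ mice 1 and 3, and the groups overlapped. For C1qa the log2 fold change was 0.47 (SE 0.18, 95% interval 0.08 to 0.85), a level 1.38 times that of WT, with an unadjusted p of 0.0204 and an adjusted p of 0.132 by edgeR. The exact permutation p was 0.3. Without WT mouse 1, C1qa was called by edgeR at a log2 fold change of 0.73 (adjusted p = 0.00423).

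C1qc stood at 25.8, 25.2 and 24.5 CPM in WT mice (25.2 ± 0.628, n = 3) and at 23.2, 34.2 and 33.4 CPM in Ube3am-/p+ mice (30.3 ± 6.11, n = 3). Ube3am-/p+ mice 2 and 3 were above all WT mice and Ube3am-/p+ mouse 1 was below them. For C1qc the log2 fold change was 0.29 (SE 0.14, 95% interval -0.01 to 0.59, edgeR adjusted p = 0.219). Without Ube3am-/p+ mouse 1 it was 0.45 and C1qc was called (adjusted p = 0.0231). C1qb stood at 35.0, 33.3 and 35.4 CPM in WT mice (34.6 ± 1.10, n = 3) and at 31.5, 33.9 and 40.0 CPM in Ube3am-/p+ mice (35.1 ± 4.41, n = 3). The lowest and the highest of the 6 mice were both Ube3am-/p+ mice, and the log2 fold change was 0.04 (SE 0.12, 95% interval -0.20 to 0.29, edgeR adjusted p = 0.844). Leaving out both mice numbered 1, an alternative chosen after the data were seen, edgeR called 3 of the 9 genes, P2ry12, C1qa and C1qc, with 28.3% of all genes called.

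The C1q chains did not keep a fixed ratio from mouse to mouse. Per length, C1qa made up 38.5%, 27.2% and 30.7% of the 3 chains in WT mice and 39.1%, 40.5% and 33.5% in Ube3am-/p+ mice, with overlap (32.1% ± 5.77 and 37.7% ± 3.69, n = 3 each). C1qb made up 36.9%, 43.2% and 42.6% in WT mice and 36.5%, 31.1% and 37.9% in Ube3am-/p+ mice. C1qc took 24.4% to 29.6% in all 6 mice. The spread between mice, as a percent of the mean in WT and in Ube3am-/p+ mice, was 28.8% and 15.0% for C1qa, 3.17% and 12.5% for C1qb and 2.49% and 20.2% for C1qc. Counting alone gives 6.11%, 5.65% and 6.40%, so that all 3 chains spread beyond counting among Ube3am-/p+ mice and C1qa did so among WT mice.

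Sums over the genes differed in opposite directions. The summed level of the 3 C1q chains was 95.7, 78.6 and 84.3 CPM in WT mice (86.2 ± 8.67) and 86.8, 110.4 and 107.2 CPM in Ube3am-/p+ mice (101.5 ± 12.8). For the other 6 genes it was 229.5, 250 and 250.6 CPM in WT mice (243.4 ± 12.1) and 222.9, 210.6 and 222.2 CPM in Ube3am-/p+ mice (218.6 ± 6.90). The groups overlapped for the C1q sum and did not for the other sum, where Csf1r, Cx3cr1 and P2ry12 carry most of the counts. Tmem119, Trem2 and Aif1, also in that other sum, had positive log2 fold changes, of 0.22, 0.21 and 0.04. The plan named only the sum over all 9 genes, and 25.0% of single genes did not overlap. Over all 9 genes the sum was 325.1, 328.6 and 335.0 CPM in WT mice (329.6 ± 4.998) and 309.7, 321.0 and 329.5 CPM in Ube3am-/p+ mice (320.0 ± 9.93), with overlap.

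**Figure D2:**
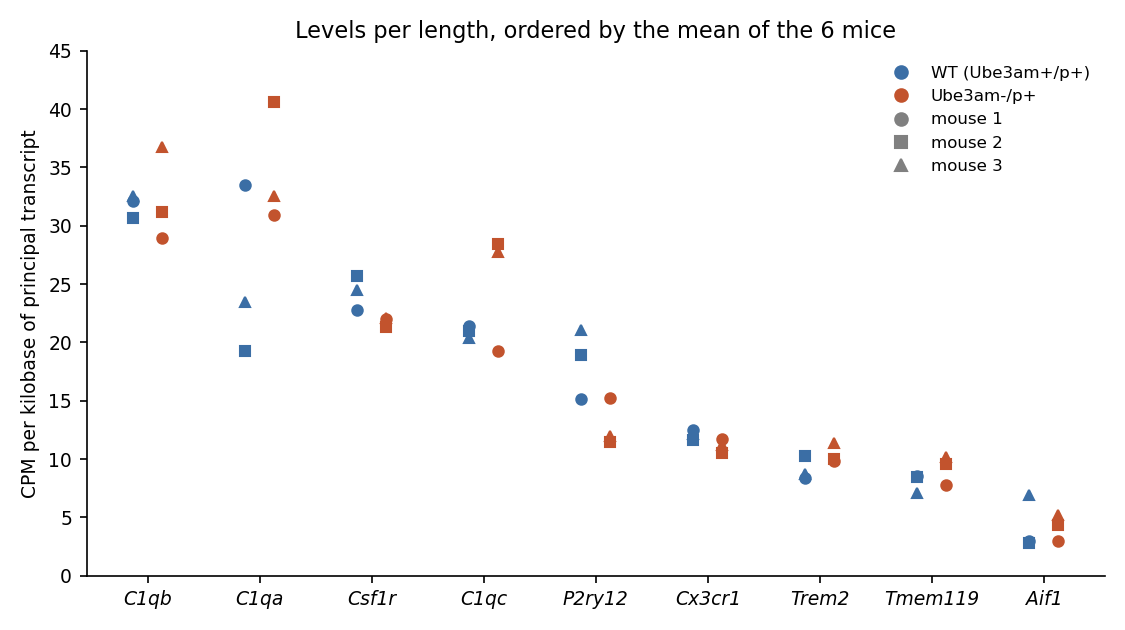
Level per length (vertical axis, CPM per kilobase of the principal transcript) of the 9 microglia genes in the 6 mice, with colour for genotype and marker shape for the mouse number. From left to right the genes run from the highest mean, C1qb at 32.0, to the lowest, Aif1 at 4.19.

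Levels were ranked per length, as CPM per kilobase of the principal annotated transcript, over the 6 mice. C1qb was the highest at 32.0 ± 2.66, then C1qa at 30.1 ± 7.62, Csf1r at 23.1 ± 1.67 and C1qc at 23.1 ± 3.97. P2ry12 followed at 15.7 ± 3.77, Cx3cr1 at 11.6 ± 0.695, Trem2 at 9.75 ± 1.10, Tmem119 at 8.60 ± 1.13 and Aif1 at 4.19 ± 1.64. Neighbours in this order overlapped in range, except Tmem119 and Aif1, so the order within the pairs C1qb and C1qa or Csf1r and C1qc is not fixed by these mice. C1qb exceeded C1qa in 3 of the 6 mice, and P2ry12 exceeded Cx3cr1 in all 6. For Trem2 the principal transcript of 1088 bases was used in place of the longest, of 4784 bases.

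GC content is set beside the fold changes because it separated the libraries. P2ry12 is the gene with the lowest GC content of the 9, at 38.6% of its longest transcript, and C1qa has the highest, at 59.5%. Of the 8 genes with a GC content of 50% or more, 6 had a positive fold change, and among all genes tested 5307 of 7002 in that class did. Below 50% stood P2ry12 alone, with a negative fold change, as had 5348 of 7199 genes in that class. After GC content and transcript length were corrected for in each library, the log2 fold change of P2ry12 was -0.23 (edgeR adjusted p = 0.300) and that of C1qa 0.15 (adjusted p = 0.647). Tmem119 and C1qc came to -0.03 and 0.00, and C1qb to -0.24 (adjusted p = 0.269). Csf1r moved away from 0, to -0.25 (95% interval -0.41 to -0.09, adjusted p = 0.112). Cx3cr1 and Trem2 were little affected, at -0.11 and 0.18. For Trem2 the GC content (51.0%) and length were those of its longest transcript, of 4784 bases, and not of the principal one of 1088 bases. A correction by the principal transcript was not tested. None of the 9 was called after the correction, 3 of the 9 (P2ry12, Csf1r and C1qb) stood at an unadjusted p below 0.05 with a negative fold change, against 14.2% of 14201 genes, of which 0.648% were called. For C1qb that sign came with the correction, since its mean CPM was not lower in Ube3am-/p+ mice. The median over the 9 genes turned from 0.04 to -0.11. The part of GC content in the differences was not tested beyond this correction.

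**Figure D3:**
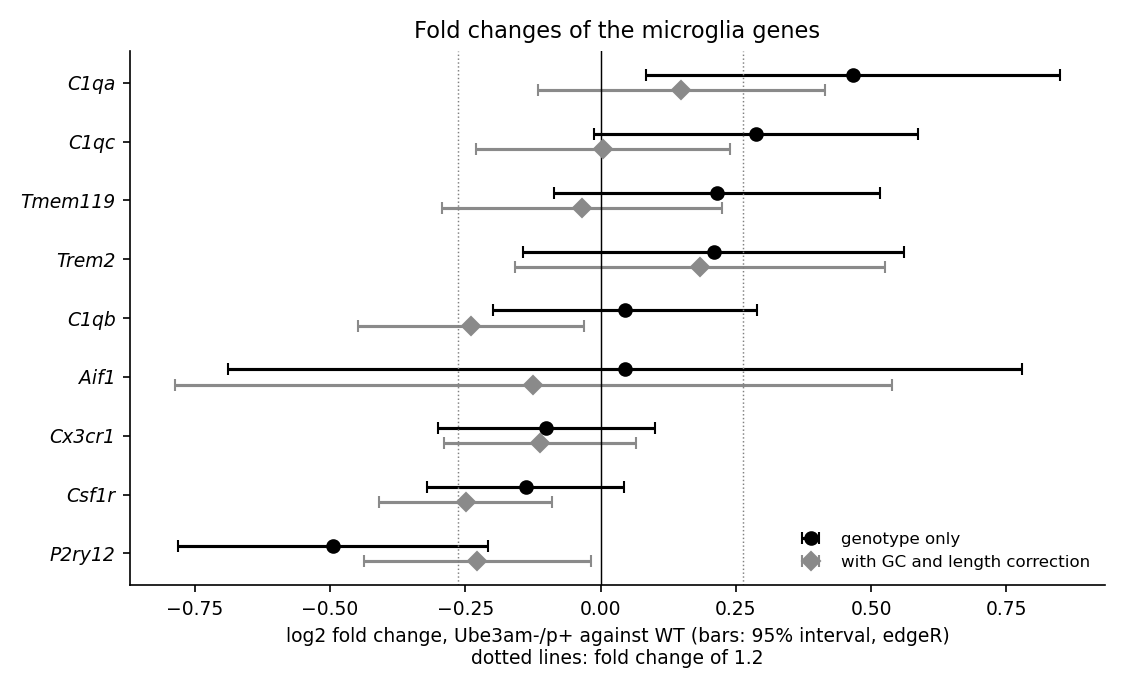
Log2 fold change of Ube3am-/p+ against WT mice (horizontal axis) for each of the 9 microglia genes, with 95% intervals by edgeR, with genotype as the only factor (black) and with GC content and length corrected for (grey), and dotted lines at a fold change of 1.2. C1qa moved from 0.47 to 0.15 and P2ry12 from -0.49 to -0.23, while Csf1r moved from -0.14 to -0.25.

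**Figure D4:**
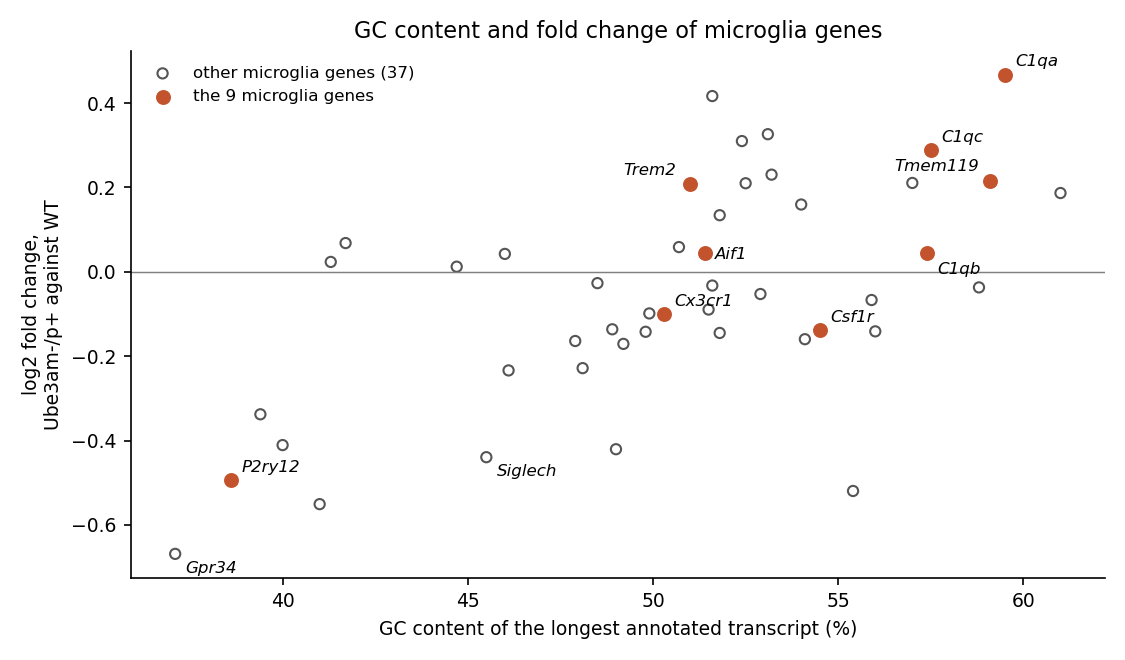
Log2 fold change of Ube3am-/p+ against WT mice (vertical axis) against the GC content of the longest transcript (horizontal axis, percent) for the 9 microglia genes and 37 further microglia genes. P2ry12 (38.6%) and Gpr34 (37.1%) lie at the low left, and C1qa (59.5%) at the upper right.

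A further 40 genes known from microglia were read beside the 9, and 37 of them passed the filter. None was called by edgeR or by DESeq2, and 4 of the 37 (10.8%) stood at an unadjusted p below 0.05 by edgeR, all with the lower mean in Ube3am-/p+ mice, where 24.6% of all genes did. DESeq2 could not call a gene that it gave no adjusted p, as with Trem2 at 591 counts in all. How many of the 37 had none is not given here. Without both mice numbered 1, edgeR called 5 of the 37, where 28.3% of all genes were called. Gpr34, a lysophosphatidylserine receptor, stood at 11.2, 12.3 and 13.9 CPM in WT mice and at 7.44, 7.25 and 8.46 CPM in Ube3am-/p+ mice, without overlap (log2 fold change -0.67, SE 0.17, edgeR adjusted p = 0.0513). After the GC correction it came to -0.37 (adjusted p = 0.305). Siglech, a sialic acid-binding lectin, had a log2 fold change of -0.44 (adjusted p = 0.123) and Mertk, a receptor for the clearance of dying cells, of -0.23 (adjusted p = 0.180). The mice numbered 1 were not alike for Gpr34, at 11.2 and 7.44 CPM. In 23 of the 37 genes the fold change was negative and in 14 positive, with a median of -0.07, and of -0.13 after the GC correction. The genotypes did not overlap for 7 of the 37 (18.9%), 6 of them lower in Ube3am-/p+ mice, where 25.0% of all genes did not. By GC content, 14 of the 18 genes below 50% had a negative fold change and 10 of the 19 at 50% or more a positive one.

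A list joined ligands, adaptors and partners of the 9 gene products with genes of the TGF-beta signal, and 17 of its 18 genes were tested. Tgfbr1, the type I receptor of the TGF-beta signal that maintains microglial identity, was down-regulated, at 34.3, 36.9 and 45.4 CPM in WT mice and 28.1, 26.1 and 23.3 CPM in Ube3am-/p+ mice (log2 fold change -0.57, edgeR adjusted p = 0.0376), and was not called after the GC correction (-0.31, adjusted p = 0.134). The ligands themselves were not called by edgeR in the design used, with log2 fold changes of 0.14 for Cx3cl1 (adjusted p = 0.415), 0.23 for Csf1 (0.231), 0.19 for Il34 (0.285) and 0.46 for Tgfb1 (0.250). Tyrobp, the adaptor that carries the Trem2 signal, stood at 6.83, 8.18 and 6.44 CPM in WT mice and at 8.23, 10.96 and 11.3 CPM in Ube3am-/p+ mice (log2 fold change 0.53, SE 0.19, adjusted p = 0.115, and 0.25 after the GC correction). Every Ube3am-/p+ mouse was above every WT mouse for Tyrobp, by a narrow margin in mouse 1. Apoe, a lipoprotein that Trem2 binds and that astrocytes make in quantity, had a log2 fold change of 0.54 (adjusted p = 0.0819), came to 0.23 after the GC correction (adjusted p = 0.216) and was called by DESeq2, as was Tgfbr1. In this list 3 of 17 genes (17.6%) stood at an unadjusted p below 0.05, against 24.6% of all genes, and the median log2 fold change was 0.14. Without both mice numbered 1, edgeR called 4 of the 17, Tgfbr1, Csf1, Tyrobp and Apoe, where 28.3% of all genes were called.

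Of the transcription factors of the microglial lineage, 9 of 10 were tested and none was called by edgeR. At an unadjusted p below 0.05 by edgeR stood 3 of the 9 (33.3%), against 24.6% of all genes. DESeq2 called 2 of the factors, Cebpa with a positive and Mef2a with a negative fold change, and so did edgeR without both mice numbered 1. Of all genes, DESeq2 called 6.69% and edgeR without those mice 28.3%. Cebpa, a myeloid C/EBP factor, stood at 18.0, 14.5 and 15.2 CPM in WT mice and at 20.9, 24.5 and 23.1 CPM in Ube3am-/p+ mice, without overlap (log2 fold change 0.54, SE 0.14, edgeR adjusted p = 0.0507). Mef2a, which neurons also express, had a log2 fold change of -0.27 (adjusted p = 0.0703). Spi1, the gene of PU.1, had 180 counts in all and a log2 fold change of 0.67 (SE 0.30, adjusted p = 0.180), and Irf8, its partner, of 0.41 (adjusted p = 0.284). After the GC correction Cebpa came to 0.24 and Mef2a to -0.05, and the median of the list was -0.01 before and 0.06 after it.

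The rest of the complement system was read with the C1q-like genes C1ql1, C1ql2, C1ql3 and C1qtnf4. Without these, 21 of 25 genes were tested, with 9 positive and 12 negative fold changes and a median of -0.04. None of the 21 was called by edgeR, 5 stood at an unadjusted p below 0.05, and DESeq2 called 1, Masp2. Of all genes, 24.6% stood at that unadjusted p by edgeR and DESeq2 called 6.69%. C1qtnf4, a secreted protein with C1q-like domains, was up-regulated, at 129.9, 129.9 and 117.6 CPM in WT mice and 164.6, 167.0 and 182.5 CPM in Ube3am-/p+ mice (log2 fold change 0.46, edgeR adjusted p = 0.0362). Its GC content is 70.7%, and after the GC correction the log2 fold change was -0.06 (adjusted p = 0.887). C1ql1, C1ql2 and C1ql3 encode C1q-like proteins that neurons release at synapses and that are not part of complement. Their log2 fold changes were 0.85, 0.50 and -0.30 (adjusted p = 0.0518, 0.0677 and 0.0642), and after the GC correction 0.46, 0.16 and -0.41 (adjusted p = 0.250, 0.376 and 0.0136), so that C1ql3 was then called. Of the C1q-like genes, DESeq2 called C1ql2, C1ql3 and C1qtnf4. Masp2, a serine protease of the lectin branch, had a log2 fold change of -0.36 (edgeR adjusted p = 0.0681), and of -0.32 after the GC correction (adjusted p = 0.0768). Without both mice numbered 1, edgeR called 4 of 22 complement genes and the 4 C1q-like genes, where 28.3% of all genes were called. Cfd was listed at 0 in every library.

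Genes known to rise in microglia around injury or plaque split in direction, with 10 of 18 tested genes positive and a median log2 fold change of 0.04. Lpl, a lipase that hippocampal neurons also express, was down-regulated (log2 fold change -0.46, edgeR adjusted p = 0.0427), and came to -0.30 after the GC correction (adjusted p = 0.102). Ctsz, a lysosomal protease, had a log2 fold change of 0.45 (adjusted p = 0.0664), Csf2ra, a cytokine receptor chain, of 0.41 (0.111), Igf1, a growth factor, of -0.58 (0.138) and Lgals3, a galectin with 70 counts in all, of 0.99 (0.162). After the GC correction they came to 0.19, 0.19, -0.24 and 0.78 in that order. At an unadjusted p below 0.05 by edgeR stood 5 of the 18 (27.8%), against 24.6% of all genes. DESeq2 called 2 of the 18, Lpl and Ctsz, where it called 6.69% of all genes. Of 30 inflammatory and antigen presentation genes 17 were tested, and neither edgeR nor DESeq2 called any. Here too DESeq2 could not call a gene that it gave no adjusted p. Against 24.6% of all genes, 2 of the 17 (11.8%) stood at an unadjusted p below 0.05 by edgeR. These were Irf7, the interferon response factor, with a log2 fold change of -1.17 on 107 counts (SE 0.39, adjusted p = 0.0880), and Ifitm3, an interferon-induced membrane protein, of 0.62 (SE 0.21, adjusted p = 0.0956). Il1b, Tnf, Il6, Ccl2 and Ccl4 each had under 10 counts over all 6 libraries. Without both mice numbered 1, edgeR called 4 of 18 genes known to rise around injury and 2 of 18 inflammatory genes, where 28.3% of all genes were called.

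**Figure D5:**
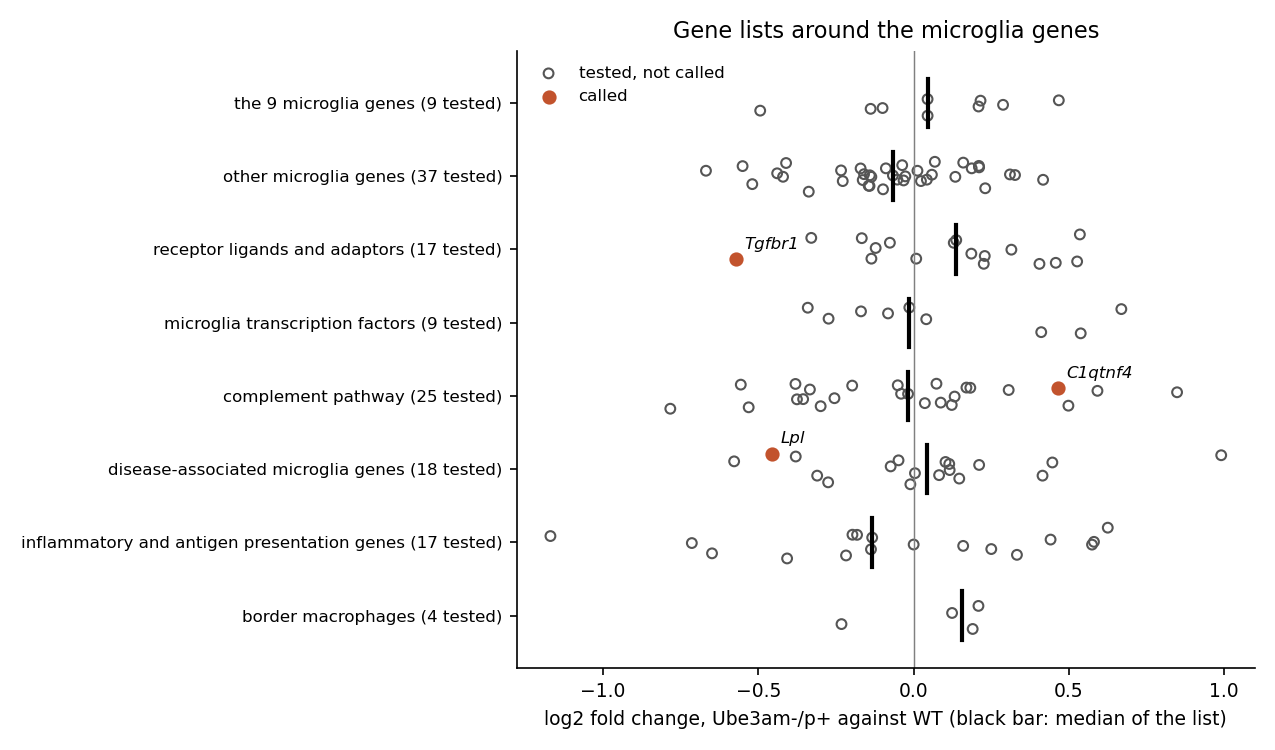
Log2 fold change of Ube3am-/p+ against WT mice (horizontal axis) of every tested gene in 8 lists, with a black bar at the median of each list and filled points for genes called by edgeR. The medians lie between -0.13 and 0.16, and Tgfbr1, C1qtnf4 and Lpl are the genes called.

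Other macrophages and blood cells read some of the same genes, so their markers were read beside the 9. Of 11 markers of the macrophages at the brain's borders 4 were tested, Stab1, Mrc1, Cd163 and F13a1, with edgeR adjusted p from 0.612 to 0.793 and none at an unadjusted p below 0.05, and DESeq2 called none. Mrc1, Cd163 and F13a1 had 212, 66 and 100 counts in all, and whether DESeq2 gave them an adjusted p is not given here. The summed level of all 11 markers was 30.4 to 39.6 CPM in WT mice and 35.9 to 43.9 CPM in Ube3am-/p+ mice. Stab1, at 21.6 to 31.6 CPM, held most of it. Of 15 blood cell genes 1, Alas2, was tested (log2 fold change -0.52, adjusted p = 0.229). Hba-a1, Hba-a2, Hbb-bs, Hbb-bt and Nkg7 were listed at 0, and the sum was 6.95 to 9.91 CPM in WT mice and 4.85 to 7.44 CPM in Ube3am-/p+ mice. Alas2, at 3.18 to 6.69 CPM, held most of that sum in every mouse. The annotation and read filters are not given, so whether a listed 0 means absent RNA cannot be told. Summed markers of other brain cells differed as well. The summed levels in WT and Ube3am-/p+ mice were 5540 to 5985 and 4922 to 5175 CPM for 10 astrocyte genes, 8360 to 8511 and 6982 to 7966 for 10 oligodendrocyte genes, 473.6 to 499.9 and 401.9 to 438.7 for 10 endothelial and pericyte genes, and 236.1 to 332.9 and 338.0 to 559.5 for 8 meningeal genes, without overlap. They overlapped for 10 neuronal genes, at 11580 to 12140 and 11490 to 12400 CPM, for 6 oligodendrocyte precursor genes, at 273.4 to 288.6 and 266.6 to 274.5, and for 6 choroid plexus genes, at 99.4 to 2173 and 105.9 to 2262. By edgeR 1 gene was called in each of the astrocyte (Slc4a4), oligodendrocyte precursor (Pdgfra), endothelial (Rgs5) and meningeal (Col1a1) lists, the last up-regulated and the others down-regulated. No gene was called among the neuronal, oligodendrocyte and choroid plexus genes, where 6, 5 and 0 stood at an unadjusted p below 0.05 and DESeq2 called 3, 3 and 0. Of all genes, edgeR called 2.01%, 24.6% stood at that unadjusted p and DESeq2 called 6.69%. After the GC correction Slc4a4 and Pdgfra were still called, Rgs5 and Col1a1 were not, and Mobp was called among the oligodendrocyte genes. The median log2 fold change came from -0.24 to -0.07 over the astrocyte genes and from -0.22 to -0.10 over the oligodendrocyte genes. Without both mice numbered 1, where 28.3% of all genes were called, edgeR called 5 of the neuronal, 6 of the astrocyte, 5 of the oligodendrocyte, 3 of the precursor, 5 of the endothelial, 2 of the meningeal and none of the choroid plexus, border macrophage and blood cell genes. Their part in the values of the 9 microglia genes was not tested.

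The genes whose log2 CPM over the 6 libraries most resembled the mean of the standardised levels of the 9 genes were Zfyve28 (Pearson's r = 0.996), Ankrd46 (0.993), Gcdh (0.988), Abhd11 (0.979) and Enoph1 (0.966), a description over 6 libraries that differ in depth and in their relation to GC content. That mean was lowest in Ube3am-/p+ mouse 1, at -0.41, and highest in Ube3am-/p+ mouse 3, at 0.59. In the WT mice it was -0.10, -0.07 and 0.03.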

How the data were processed

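Hippocampal RNA of 6 mice was sequenced with 1 library each. The authors deposited raw counts per gene symbol, without normalization. STAR 2.7.4a, HTSeq and mm10 are named in the submitters' processing notes. The annotation, strand setting and read filters are not given in the sources used here. The 9 genes and all lists were chosen with earlier results of these data known. Genes were kept by filterByExpr (14445 of 25239), scaled by TMM and tested in edgeR 4.0.16 (R 4.3.3). Its quasi-likelihood test, robust and two-sided, had genotype alone as a term, and p-values were adjusted by Benjamini-Hochberg over all genes kept. The biological coefficient of variation was 0.102. Calls took an adjusted p under 0.05 with a fold change over 1.2. CPM used the total gene counts of a library, 7293272 to 11314409. Reads on genes were 39.0% to 41.8% of the reads listed, and those on no gene 54.1% to 55.0%. For single genes, mice were permuted exactly. The correction fitted natural splines with 5 degrees of freedom in each library on the GC content and the length of a gene's longest transcript (GENCODE M21). Alternatives were DESeq2 1.42.0, other scaling factors and filters, a replicate block and leaving out mice. Named genes are the 9, Ube3a, the genes called in a list, up to 4 more of a list with the lowest p, and the 5 genes most alike. Ligands outside this rule, and genes listed at 0 or under 10 counts, were named after their values were seen. Values of 1 gene covered by this rule are not reported here. The edgeR fit, with and without the GC and length correction, and the DESeq2 fit were tested on simulated counts. Those counts held no GC difference between libraries, so the removal of such a difference was not tested. The p-values set the difference between genotypes against the spread between these mice. Except after the GC correction, they take no account of the libraries' relation to GC content.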

Additional observations from a re-analysis of the deposited data

How the results depend on the processing

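The call on the 9 microglia genes depended on the setting. Of the 9, edgeR called none, DESeq2 1, edgeR without a filter 1 (P2ry12 in both), edgeR without both mice numbered 1, an alternative chosen after the data were seen, 3, and an unadjusted p below 0.05 with the same fold change 2. Leaving out 1 mouse in turn gave 0 to 2, with P2ry12 called without WT mouse 1 (beside C1qa) and without Ube3am-/p+ mouse 1 (beside C1qc). Of the 37 further microglia genes, edgeR called none, and 1 (Gpr34) with library size only, with DESeq2 size factors, without a filter and with at least 10 counts in every library, 5 without both mice numbered 1, 2 at an unadjusted p with the same fold change, and 0 to 3 with 1 mouse left out. Of all genes, 290 were called in the design used, 967 by DESeq2, 1176 without a filter, 92 after the GC and length correction, 2832 at an unadjusted p, 4138 without both mice numbered 1, and 0 to 2582 with 1 mouse left out. That count was 2582 without WT mouse 1, 1816 without Ube3am-/p+ mouse 1, 2 without Ube3am-/p+ mouse 3 and 0 without any other mouse. The cause was not tested.

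Over the 9 genes the log2 fold change had a median of 0.04, and of -0.11 after the GC and length correction, -0.10 with the replicate block and that correction together, and -0.066 to 0.24 with 1 mouse left out. P2ry12, Cx3cr1 and Csf1r kept a negative and C1qa and Trem2 a positive log2 fold change in all 16 alternatives. Tmem119 turned to -0.034 with the GC and length correction and to -0.038 with the replicate block and that correction, C1qb to -0.24 in both, C1qc to -0.0098 with both, and Aif1 to -0.12 and -0.10. With 1 mouse left out, C1qb ranged from -0.066 to 0.13 and Aif1 from -0.19 to 0.57. The numbers 1 to 3 in the labels were tried as a replicate block. Same-numbered mice deviated in opposite directions (r = -0.29, -0.18 and -0.31 across genes) and no mouse correlated best with its own number, so the numbers were not taken as pairs. These are deviations within a genotype, in which the mice numbered 1, alike in their relation to GC content, fall on opposite sides. With the replicate block no gene was called, of the 9 or of all, and 13 genes were called with the block and the GC correction. The difference in the summed CPM of the 9 genes was -9.53 in the design used, -5.44 with TMM scaling and -14.24 to -4.34 with 1 mouse left out, the ends being without Ube3am-/p+ mouse 3 and without Ube3am-/p+ mouse 1.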
